A study of Mus musculus with 76 samples.

Results

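The subcortical maternal complex is a set of proteins that the growing oocyte makes and stores beneath its membrane, and 8 genes that encode its members or proteins tied to it were followed here. The genes were chosen by symbol as Nlrp5, Ooep, Tle6, Khdc3, Padi6, Nlrp2, Nlrp4f and Zbed3, and all 8 were found among the 48321 genes of the deposited count tables. RNA with a poly(A) tail had been sequenced from mouse oocytes, from embryos at the 2-cell and blastocyst stages, and from extraembryonic ectoderm (ExE, trophoblast tissue beside the embryo proper) of embryonic day 6.5, with 1 oocyte, embryo or tissue piece a library. Each library was an Ezhip maternal knockout (matKO) or wild type (WT), and the series is about maternal loss of Ezhip, whose protein restrains PRC2, the Polycomb complex that methylates histone H3. There were 4 matKO and 3 WT oocytes, 12 matKO and 11 WT 2-cell embryos, 14 matKO and 14 WT blastocysts, and 8 matKO and 10 WT ExE samples. By sex, the embryos numbered 6 female and 6 male matKO and 5 female and 6 male WT at the 2-cell stage, 7 and 7 matKO and 6 and 8 WT as blastocysts, and 5 and 3 matKO and 6 and 4 WT as ExE. The sources used here do not give the knockout allele, the strain, the litters or the ages of the mothers.

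In mouse oocytes the proteins of Nlrp5, Ooep and Tle6 form the core of the complex, to which the Khdc3 protein binds. The complex takes part in spindle placement, organelle distribution and the first cleavages of the embryo, and embryos of mothers that lack a core member stop developing in early cleavage. Padi6 is needed for the cytoplasmic lattices, fibres in the oocyte that store proteins, and in humans harmful variants in mothers in several of these genes are linked to failed embryo development or disturbed imprinting in their children. The RNAs are known as stored maternal RNAs, made in the growing oocyte and removed after fertilization.

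Library totals, in M (mega) counts, were 5.27 to 26.5 in oocytes, 1.05 to 14.1 in 2-cell embryos, 4.06 to 32 in blastocysts and 2.74 to 26.7 in ExE. Ezhip, which the tables list as AU022751, was at 0.258, 0.19, 0.59 and 0.113 CPM (counts divided by the library total in M counts) in the matKO oocytes, against 943, 1460 and 1380 CPM in the WT oocytes. It averaged 3.29 CPM in matKO and 160 CPM in WT 2-cell embryos, and 0.332 CPM in matKO and 5.58 CPM in WT blastocysts. The gene lies on chromosome X, and the labels do not say whether female and male matKO embryos carried an intact copy of their own. The summed oocyte markers Zp3, Gdf9, Bmp15 and Oosp1 were at 10200 to 18200 CPM in matKO and 18900 to 22400 CPM in WT oocytes, and all 5 blastocyst markers were above 0 in blastocysts of both genotypes. Transcripts of cumulus and granulosa cells, which surround the oocyte, summed over 12 markers to 10.7 ± 6.18 CPM in matKO and 401 ± 477 CPM in WT 2-cell embryos (standard deviation between libraries, SD, n = 12 and 11).

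The promoters of 4 of the genes are shown because their RNAs, all found in the oocyte, took separate courses at later stages. They are the 250 bases before and 50 bases after the start site in RefSeq on build GRCm38.p6, read 5′ to 3′ on the strand of the gene, and capitals mark the motifs searched. The motifs were TAATTG, a site bound by the oocyte homeobox factor NOBOX, and the E-box CANNTG, the site type of the oocyte factor FIGLA, each on both strands and with overlaps between matches allowed. The Ooep promoter lies at chr9:78378539-78378838 on the minus strand, that of Padi6 at chr4:140742594-140742893 on the minus strand, that of Khdc3 at chr9:73102148-73102447 on the plus strand and that of Nlrp4f at chr13:65205667-65205966 on the minus strand.
Ooep: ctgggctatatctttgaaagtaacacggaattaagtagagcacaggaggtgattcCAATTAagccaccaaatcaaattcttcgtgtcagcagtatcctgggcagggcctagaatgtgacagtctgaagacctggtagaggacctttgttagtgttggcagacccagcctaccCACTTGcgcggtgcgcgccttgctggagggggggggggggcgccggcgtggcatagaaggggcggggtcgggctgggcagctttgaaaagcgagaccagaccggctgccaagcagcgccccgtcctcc
Padi6: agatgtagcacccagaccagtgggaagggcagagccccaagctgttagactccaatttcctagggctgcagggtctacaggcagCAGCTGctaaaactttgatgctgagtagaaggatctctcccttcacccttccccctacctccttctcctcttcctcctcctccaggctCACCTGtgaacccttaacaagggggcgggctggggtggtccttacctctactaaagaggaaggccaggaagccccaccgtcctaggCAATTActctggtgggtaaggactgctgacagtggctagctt
Khdc3: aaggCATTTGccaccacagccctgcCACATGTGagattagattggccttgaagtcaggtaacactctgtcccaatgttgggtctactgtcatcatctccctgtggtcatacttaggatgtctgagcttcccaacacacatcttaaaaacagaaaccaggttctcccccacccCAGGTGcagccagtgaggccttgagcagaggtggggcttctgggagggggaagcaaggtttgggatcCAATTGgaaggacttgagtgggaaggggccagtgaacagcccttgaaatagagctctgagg
Nlrp4f: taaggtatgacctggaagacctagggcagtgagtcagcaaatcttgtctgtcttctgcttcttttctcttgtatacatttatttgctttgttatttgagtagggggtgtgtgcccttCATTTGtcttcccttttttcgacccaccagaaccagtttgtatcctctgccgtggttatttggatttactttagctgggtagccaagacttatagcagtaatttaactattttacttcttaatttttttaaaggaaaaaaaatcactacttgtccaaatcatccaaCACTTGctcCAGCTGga
The RefSeq start sites of Padi6 and Nlrp4f are those of the count tables, and those of Ooep and Khdc3 lie 137 and 562 bases inside the gene models counted. All 8 genes had a promoter in RefSeq. TAATTG or its reverse complement was in 2 of them, Ooep at 195 bases before the start and Padi6 just after it, against 8.0% of all 32851 promoters of this length. An E-box was in 7 of 8, Khdc3 with 5, against 72.3% of all promoters, and the octamer ATTTGCAT was in 0 of 8 against 1.74%. Guanine and cytosine made up 58.3% of the Ooep promoter with 15 CpG sites, 52.7% of that of Khdc3 with no CpG site, and 38.7% of that of Nlrp4f with 2. These matches are descriptions of the letters in these windows.

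In oocytes the 8 genes together held 1.2% of all counts in matKO and 1.33% in WT libraries. Per kilobase of exon, Ooep was highest in both genotypes, at 1100 ± 320 CPM per kb in matKO and 1300 ± 242 CPM per kb in WT oocytes (SD, n = 4 and 3). Tle6, Padi6 and Zbed3 followed at 951, 915 and 816 CPM per kb in matKO oocytes and 955, 1080 and 778 in WT oocytes, and the ranges of these 4 genes overlapped one another in both genotypes. Nlrp5 averaged 324 ± 165 in matKO and 413 ± 133 CPM per kb in WT oocytes, and Nlrp4f averaged 234 ± 19.3 and 224 ± 9.65. The libraries of these last 2 genes overlapped in matKO and did not in WT. Nlrp2 was lower than both without overlap, at 88.9 ± 18.3 CPM per kb in matKO and 120 ± 8.92 in WT oocytes. Khdc3 was listed lowest, at 78.6 ± 62.2 and 78.1 ± 50.8 CPM per kb, and overlapped Nlrp2. Its place in this order is uncertain, since 790 of its 2050 exonic bases also belong to the read-through gene model Gm20509 on the same strand, which had 0 counts in every library.

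Apart from Nlrp2, given below, the genotypes overlapped, and single oocytes of a genotype differed from one another. Padi6, at chr4:140727355-140742643 on the minus strand in mm10, was at 1880, 1840, 764 and 4780 CPM in the matKO oocytes and at 3970, 1890 and 2360 CPM in the WT oocytes. Nlrp5 (chr7:23385889-23441922, plus strand) was at 1850, 1260, 647 and 2520 CPM in the matKO and 2710, 1470 and 1820 CPM in the WT oocytes. Tle6 (chr10:81590904-81601073, minus strand) was at 2290, 2460, 1480 and 5510 CPM in the matKO and 4270, 2180 and 2400 CPM in the WT oocytes. For these 3 genes matKO oocyte 4 was the highest and matKO oocyte 3 the lowest of the matKO libraries, WT oocyte 1 was the highest of the WT libraries, and the genotypes overlapped.

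Khdc3 (chr9:73101836-73104438, plus strand) had that order too, at 135, 112, 52.7 and 345 CPM in the matKO and 278, 122 and 80.1 CPM in the WT oocytes. Ooep (chr9:78376109-78378725, minus strand), which like Khdc3 encodes a KH-domain protein, was at 3300, 2170, 1660 and 2270 CPM in the matKO and 2210, 3230 and 2870 CPM in the WT oocytes, so another library was highest in each genotype. Nlrp4f (chr13:65177111-65205716, minus strand), a rodent gene of the NLRP family, varied least, at 925, 781, 786 and 808 CPM in the matKO and 812, 808 and 751 CPM in the WT oocytes. Zbed3 (chr13:95325237-95337841, plus strand), known for a part in placing the complex and the spindle, was at 1630, 1400, 1220 and 1940 CPM in the matKO and 1170, 2070 and 1180 CPM in the WT oocytes. The plot of single oocytes shows this spread.

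**Figure D1:**
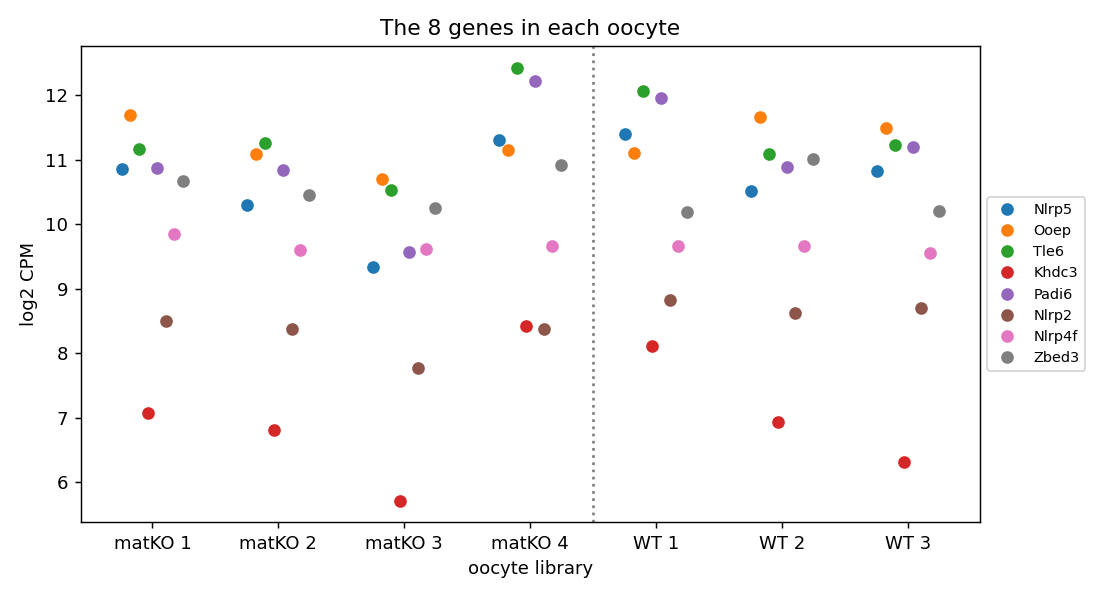
Log2 CPM of the 8 genes (points, 1 colour a gene) in each of the 4 matKO and 3 WT oocyte libraries. Padi6 runs from 764 CPM in matKO oocyte 3 to 4780 CPM in matKO oocyte 4, whereas Nlrp4f stays between 751 and 925 CPM in all 7.

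None of the 8 genes passed the test between matKO and WT oocytes. The test was edgeR's quasi-likelihood test with Benjamini-Hochberg adjustment over the 14838 genes tested, and a gene was called at an adjusted p under 0.05, as were 0.0202% of all genes. At an unadjusted p under 0.05 the count was also 0 of 8, against 6.27% of all genes. DESeq2 called 0 of 8, and 36 of all 14838 genes. The log2 fold changes, matKO over WT, lay between −0.45 and 0.05, with standard errors (SE) of 0.16 to 0.58. Nlrp2 (chr7:5298547-5351035, minus strand), whose protein is found with the complex in mouse oocytes, was at 364, 332, 218 and 334 CPM in the matKO and 455, 393 and 417 CPM in the WT oocytes. All 4 matKO values lay below all 3 WT values, a separation that 8.08% of all genes showed. Its log2 fold change was −0.45 ± 0.20 (SE), with an edgeR adjusted p of 0.79. The RNAs of relatives and partners gave no called gene either, with 0 of 9 tested oocyte NLRP genes, 0 of 4 KH-domain relatives, 0 of 7 partners such as Uhrf1 and Dnmt1, and 0 of 15 other stored maternal RNAs. Among the cumulus markers, Cyp11a1, a steroid-making enzyme, was lower in matKO oocytes by a log2 fold change of −2.16 (edgeR adjusted p = 0.0068).

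**Figure D2:**
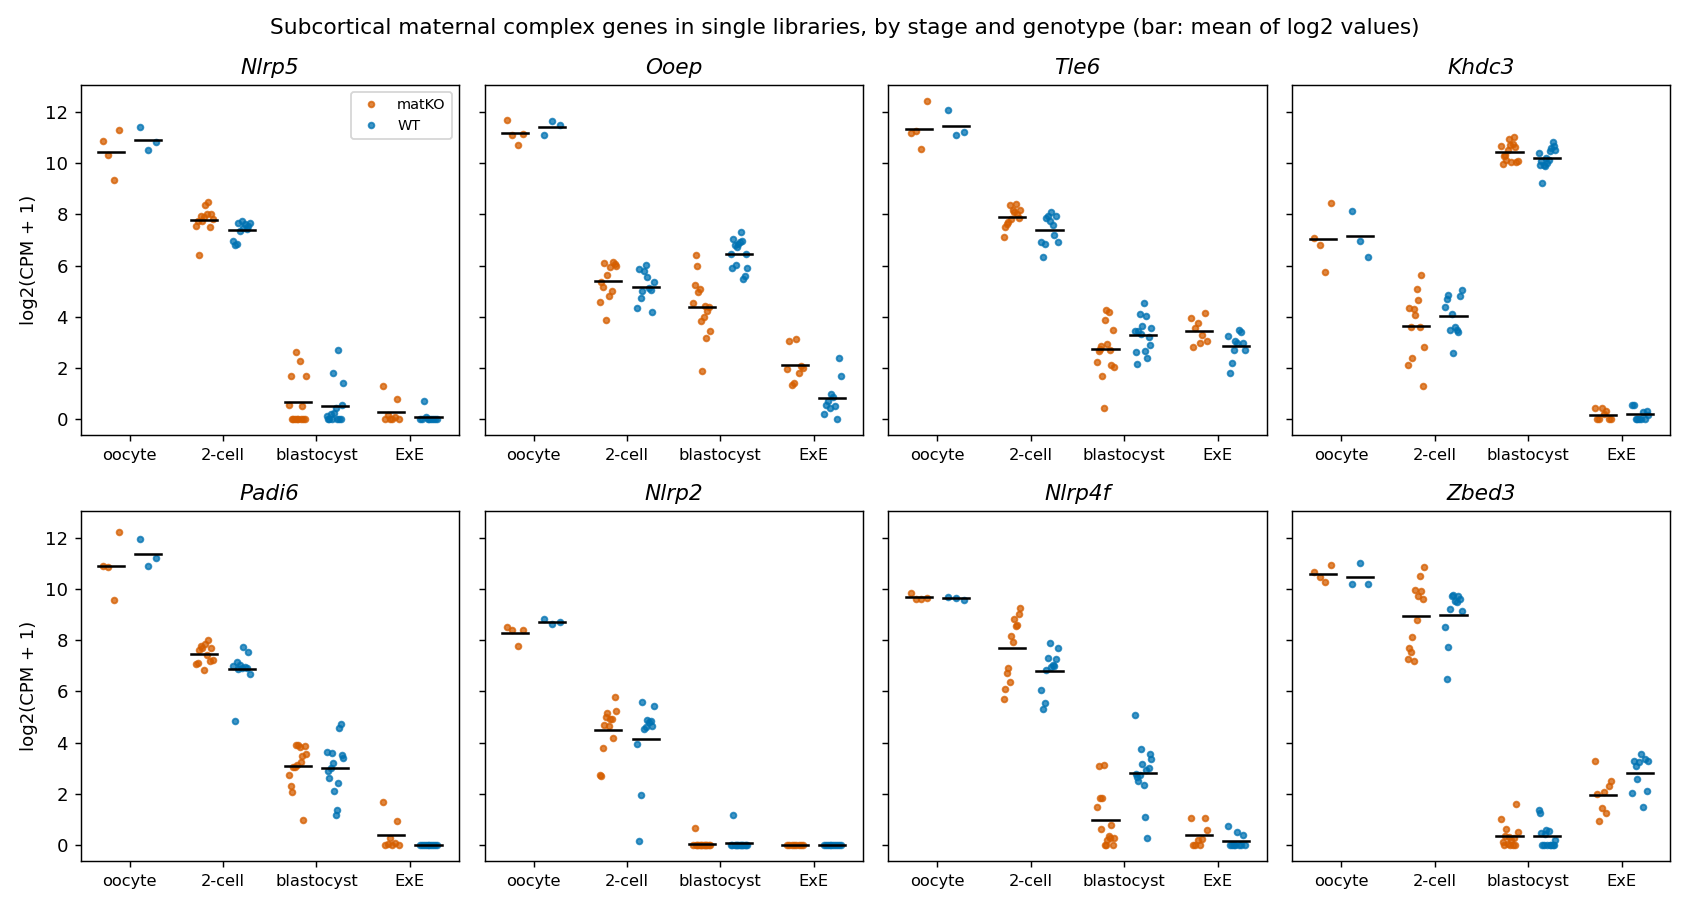
Each point is 1 library and the bar the mean of log2(CPM + 1), with matKO left of WT at every stage. Khdc3 alone of the 8 genes is highest in blastocysts, at means of 1420 CPM in matKO and 1220 CPM in WT, and the others are highest in oocytes.

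After fertilization all 8 RNAs were lower. Ooep changed most, at 45.4 ± 19.6 CPM in matKO 2-cell embryos, against 2350 ± 684 CPM in matKO oocytes, and at 38 ± 15.4 CPM in WT 2-cell embryos, against 2770 ± 517 CPM in WT oocytes. Its log2 fold change, 2-cell over oocyte, was −5.90 ± 0.37 in matKO (edgeR adjusted p = 1.9e-14) and −6.42 ± 0.38 in WT (edgeR adjusted p = 7.8e-15). In matKO, 8 of 8 genes fell, where 23.4% of the 17486 genes tested did, and in WT 8 of 8 fell, where 20.8% did. The median log2 fold change was −3.7 over the 8 genes and −0.0953 over all genes in matKO, and −4.02 and −0.00235 in WT. Polyadenylated RNA was sequenced, and a shorter poly(A) tail and less RNA cannot be told apart in such libraries.

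Nlrp5, Tle6 and Padi6 kept between 4.66% and 14.8% of their oocyte level. Nlrp5 averaged 232 ± 69.5 CPM in matKO 2-cell embryos, 14.8% of the matKO oocyte mean, and 168 ± 36.1 CPM in WT 2-cell embryos, 8.41% of the WT oocyte mean. Tle6 averaged 245 ± 59.5 CPM in matKO 2-cell embryos, 8.35% of its oocyte mean, and 179 ± 66.1 CPM in WT, 6.08% of its oocyte mean. Padi6 was at 179 ± 44.2 CPM in matKO, 7.74% of the oocyte mean, and 128 ± 46.2 CPM in WT, 4.66%. Khdc3 kept 10.1% in matKO and 11.1% in WT, and Nlrp2 kept 8.11% and 5.58%.

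Nlrp4f and Zbed3 kept most, taken as means over each genotype. In matKO this rested on the 7 embryos with library identifiers 42 to 48, at 408 CPM for Nlrp4f and 1040 CPM for Zbed3. The 5 with identifiers 37 to 41 averaged 84.4 and 192 CPM, against matKO oocyte means of 825 and 1550 CPM. Nlrp5 averaged 188 CPM in the same 5 embryos, against 1570 CPM in matKO oocytes. Nlrp4f stood at 33.1% of the oocyte mean in matKO 2-cell embryos and 16% in WT, with log2 fold changes of −1.77 ± 0.47 and −2.90 ± 0.48. Zbed3 stood at 44.5% in matKO and 40.7% in WT, with log2 fold changes of −1.30 ± 0.51 in matKO (edgeR adjusted p = 0.033) and −1.52 ± 0.55 in WT (edgeR adjusted p = 0.025). The Zbed3 calls did not hold with library totals alone as scaling (edgeR adjusted p = 0.09 in matKO and 0.087 in WT) or without the filter on low counts (0.094 and 0.085). In matKO the call was also lost without oocyte 1, 3 or 4 (edgeR adjusted p of 0.07, 0.056 and 0.089), and in WT without oocyte 2 (0.15). Every 2-cell embryo was below every oocyte for 7 of 8 genes in matKO, as for 16.6% of all genes, and for 8 of 8 in WT, as for 18.9%. Zbed3 was the gene whose matKO 2-cell embryos and oocytes overlapped.

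The change from oocyte to 2-cell embryo did not differ between genotypes at the threshold for any of the 8 genes, by the test of the difference itself. The largest of these differences, matKO minus WT, was 1.13 ± 0.67 for Nlrp4f (edgeR adjusted p = 1). At an unadjusted p under 0.05 by edgeR there was 1 of 8, Nlrp5 at 0.87 ± 0.40, against 5.39% of all genes. Over all genes 0.0286% were called.

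Most of the other oocyte NLRP genes and stored maternal RNAs fell as well. Of 9 tested NLRP genes of the oocyte, 6 fell in matKO and 8 in WT, led by Nlrp14, an NLRP gene of oocytes and testis, with log2 fold changes of −3.29 in matKO (edgeR adjusted p = 2.9e-10) and −3.90 in WT (edgeR adjusted p = 6.7e-11), Nlrp4b (−4.42 and −4.99) and Nlrp4a (−3.03 and −3.84). Of the 15 other stored maternal RNAs 13 fell in each genotype, among them Gdf9, an oocyte growth factor (−4.01 in matKO and −4.95 in WT), and Zar1, an RNA-binding regulator of maternal RNAs (−6.25 and −6.79). The partners Dnmt1, the maintenance DNA methyltransferase (−3.87 and −3.76), and Skp1a (−2.85 and −2.91) were among 7 of 7 that fell in matKO and 6 of 7 in WT. Of the 4 KH-domain relatives 0 fell in either genotype, and 1, Dppa5a, rose in matKO (1.28, edgeR adjusted p = 0.048). Of 5 relatives of Tle6, 2 rose in both genotypes, Tle3 (4.70 in matKO and 3.87 in WT) and Tle4 (1.93 and 1.18), both of them Groucho-type corepressors, as did Zbed4, a relative of Zbed3 (1.90 and 2.01). Of the 3 tested relatives of Padi6, 0 were called in either genotype. The oocyte regulators Figla (−7.86 in matKO and −9.19 in WT) and Lhx8 (−2.94 and −3.04) and Nobox (−5.06 and −5.80) fell, and Taf4b rose (3.88 and 2.84), 3 of 6 falling and 1 rising in each genotype.

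Between matKO and WT 2-cell embryos 0 of 8 genes were called, where 0.731% of 14506 genes were. At an unadjusted p under 0.05, 4 of 8 were higher in matKO, where 7.34% of all genes were. Nlrp4f was at 51.6 CPM in the lowest, 262 in the median and 611 in the highest matKO embryo, and at 39.1, 125 and 238 CPM in WT embryos. Its log2 fold change was 1.19 ± 0.37, with an edgeR adjusted p of 0.12. Nlrp5 (0.54 ± 0.18, edgeR adjusted p = 0.14), Tle6 (0.55 ± 0.19, 0.16) and Padi6 (0.57 ± 0.21, 0.18) were the other 3, each with 11 of 12 matKO embryos above the WT mean. DESeq2 called 2 of the 8, Nlrp4f (1.27, DESeq2 adjusted p = 0.022) and Nlrp5 (0.57, 0.04). Over all 14506 genes DESeq2 called 693. Ooep (0.29 ± 0.29), Zbed3 (0.28 ± 0.39), Nlrp2 (0.24 ± 0.48) and Khdc3 (−0.19 ± 0.45) had edgeR adjusted p of 0.69 to 0.89. No difference between female and male embryos in the genotype effect was called for any of the 8, nor for any gene tested (0% by edgeR, 6.41% at an unadjusted p under 0.05, of the 8 genes 0).

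For Nlrp4f and Zbed3 the matKO 2-cell embryos parted by their library identifiers, which are not explained in the labels. The 7 embryos numbered 42 to 48 had Nlrp4f at 241 to 611 CPM, all above the highest WT embryo, and the 5 numbered 37 to 41 had 51.6 to 119 CPM, within the WT range. Zbed3 was at 445 to 1840 CPM in the first set and 144 to 276 CPM in the second, against 87.3 to 862 CPM in the 11 WT embryos. How many of all genes part these sets was not counted, so the parting is not shown to be particular to Nlrp4f and Zbed3. Nlrp5 averaged 263 ± 60 CPM in the first set and 188 ± 61.5 CPM in the second, against 168 ± 36.1 CPM in WT. Padi6 was alike in both sets, at 180 ± 50.1 and 178 ± 40.3 CPM, against 128 ± 46.2 CPM in WT. The genes other than Nlrp4f and Zbed3 overlapped between the sets, Nlrp5 among them at 183 to 356 and 84.4 to 244 CPM. The sets were drawn with earlier results of these data known, so no test between them is given, and fits without the first set stand only as alternatives. Depth was lower in the first set, with a median of 1.9 M counts, than in the second with 6.02 M and in WT with 5.82 M. The summed markers of the 2-cell stage, such as Zscan4c and Zfp352, stood at 1090 ± 371 CPM in the first set, 213 ± 63.2 CPM in the second and 209 ± 134 CPM in WT. All 5 of these markers were above 0 in both genotypes, and their part in the result was not tested.

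**Figure D3:**
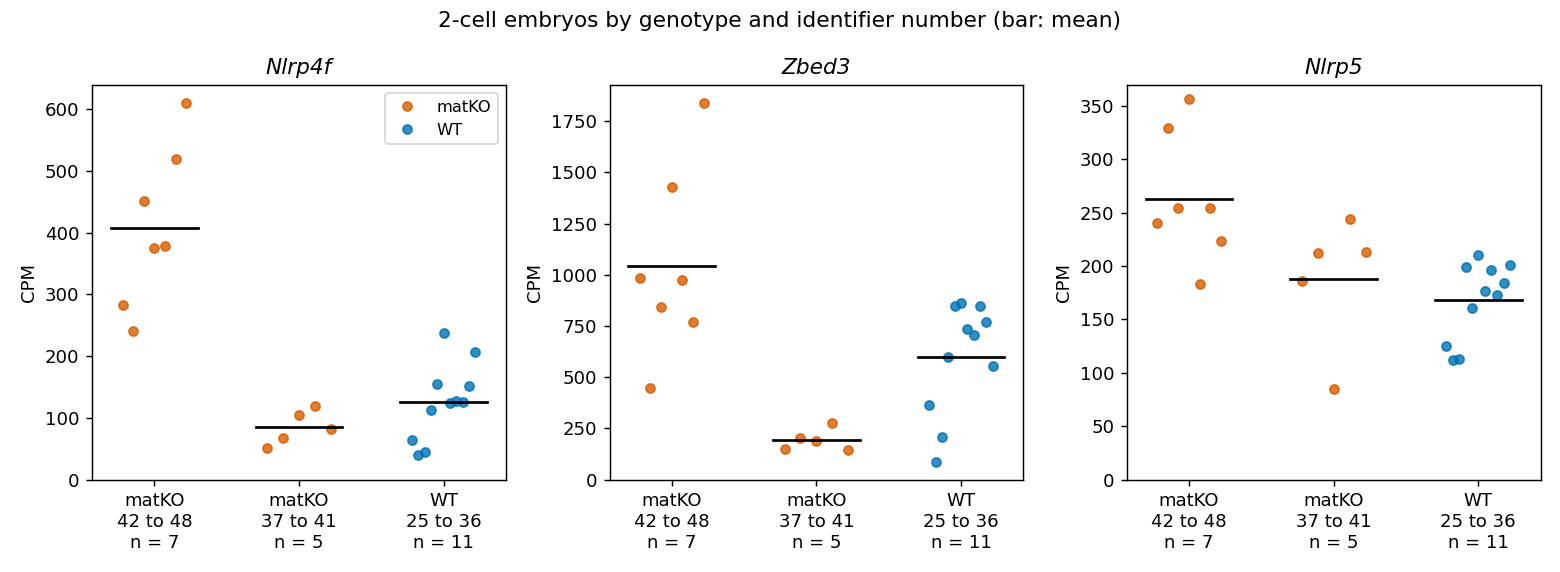
CPM of Nlrp4f, Zbed3 and Nlrp5 in single 2-cell embryos (points) and their means (bars) for matKO embryos numbered 42 to 48, matKO embryos numbered 37 to 41, and WT embryos. Nlrp4f averages 408, 84.4 and 126 CPM in these sets, and Zbed3 averages 1040, 192 and 599 CPM.

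Without the 7 embryos numbered 42 to 48 the direction of both genes turned. The log2 fold change, matKO over WT, was then −0.59 for Nlrp4f (edgeR adjusted p = 0.36) and −1.54 for Zbed3 (edgeR adjusted p = 0.071). In the matKO embryos as a whole 2 of 5 markers of the 2-cell stage rose, Zfp352 (2.40 ± 0.57, edgeR adjusted p = 0.039) and Tcstv3 (2.19 ± 0.54, 0.047). Gdf9 rose too (0.76 ± 0.18, 0.037), 1 of the 15 other stored maternal RNAs. Of 6 tested cumulus markers, 3 fell in matKO 2-cell embryos, Hsd3b1 (−10.79, edgeR adjusted p = 1.7e-05), Inha (−8.10, 0.00052) and Cyp11a1 (−12.19, 0.0026), and their part in the result was not tested. Of 9 oocyte NLRP genes, 4 KH-domain, 5 TLE, 2 PADI and 2 ZBED relatives, 7 partners and 5 oocyte regulators tested, 0 were called.

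In blastocysts the 8 genes took separate courses. Khdc3 rose to 1420 ± 355 CPM in matKO blastocysts, against 16.3 ± 13.6 CPM in matKO 2-cell embryos, and to 1220 ± 326 CPM in WT blastocysts, against 17.7 ± 9.27 CPM in WT 2-cell embryos. The log2 fold changes were 7.54 ± 0.39 in matKO (edgeR adjusted p = 1.9e-23) and 7.08 ± 0.40 in WT (edgeR adjusted p = 3e-21). Every blastocyst was above every oocyte for this gene, the lowest WT blastocyst having 599 CPM and the highest oocyte 345 CPM. Khdc3 is also known from mouse embryonic stem cells, where its protein acts in genome stability. Over the 8 genes, 1 rose and 7 fell from the 2-cell stage in matKO and 2 rose and 6 fell in WT, all 8 called in each genotype, where 72.7% and 64.1% of 17361 genes were. All genes together had a median log2 fold change of −0.533 in matKO and −0.487 in WT.

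Of the 8 genes, 3 were near 0 by the blastocyst stage. Nlrp2 had counts in 1 of 14 matKO and 1 of 14 WT blastocysts, with 14 and 29 counts. Zbed3 averaged 0.358 ± 0.56 CPM in matKO and 0.342 ± 0.517 CPM in WT blastocysts, and Nlrp5 averaged 1.02 ± 1.68 and 0.784 ± 1.56 CPM. Tle6 was still found in every blastocyst, at 7.21 ± 5.48 CPM in matKO and 9.88 ± 5.26 CPM in WT, as was Padi6, at 8.55 ± 4.2 CPM and 9.14 ± 7.13 CPM. Their falls from the 2-cell stage were −4.16 ± 0.36 in matKO and −2.98 ± 0.43 in WT for Tle6, and −3.13 ± 0.35 and −2.51 ± 0.37 for Padi6.

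Ooep was lower in matKO than in WT blastocysts. It was at 2.71 CPM in the lowest, 20 in the median and 84 in the highest of the 14 matKO blastocysts, and at 43.2, 96.2 and 159 CPM in the 14 WT blastocysts. All 14 matKO blastocysts lay below the WT mean and 12 below every WT blastocyst. The log2 fold change, matKO over WT, was −1.52 ± 0.23, a level 2.87-fold lower, with an edgeR adjusted p of 9.1e-05 in a model with terms for sex and identifier prefix. In libraries of whole blastocysts, fewer cells of a type and less RNA per cell cannot be told apart.

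Blastocysts of both genotypes came under the identifier prefixes D405T and D707T, and the Ooep difference was there in each. Under D405T the 6 matKO blastocysts averaged 44.6 ± 23.5 CPM and the 10 WT blastocysts 107 ± 30.4 CPM, and the ranges overlapped. Under D707T the 8 matKO blastocysts, at 2.71 to 20.4 CPM, lay below the 4 WT blastocysts, at 43.2 to 85.8 CPM, a separation that 3.78% of the genes tested showed. Leaving out any 1 library kept the edgeR call, with log2 fold changes of −1.66 to −1.44. No difference in the genotype effect between females and males was called for Ooep (−0.50 ± 0.44, edgeR adjusted p = 1) or any other of the 6 genes tested, where 0.00744% of all genes were. At an unadjusted p under 0.05 there were 2 of 6, Nlrp5 and Khdc3, against 2.67% of all genes.

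Nlrp4f was the other gene called. It was at 0, 0.413 and 7.69 CPM in the lowest, median and highest matKO blastocyst, and at 0.202, 6.23 and 32.7 CPM in the WT blastocysts, so the genotypes overlapped. Its log2 fold change was −2.48 ± 0.65 (edgeR adjusted p = 0.017), and all 14 matKO blastocysts were below the WT mean. Under D405T it averaged 3.79 ± 3.06 CPM in 6 matKO and 8.63 ± 8.92 CPM in 10 WT blastocysts (log2 fold change −1.07, edgeR adjusted p = 0.35). Under D707T it averaged 0.197 ± 0.242 CPM in 8 matKO and 6.78 ± 4.61 CPM in 4 WT blastocysts (−4.87, edgeR adjusted p = 0.059). The call was lost within each prefix, in females alone (−2.31, 0.22), in males alone (−2.57, 0.28), without the prefix term (−2.10, 0.056) and with a block for replicate numbers (−1.76, 0.30).

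Nlrp4f has close relatives in Nlrp4a to Nlrp4g, and its values are uncertain where reads match several of them, since the sources used here do not say how such reads were counted. Among those relatives, Nlrp4a averaged 0 CPM in matKO and 0.105 CPM in WT blastocysts, Nlrp4e 0.242 and 0.9 CPM, and Nlrp4c 53.9 and 69.3 CPM, and 0 of the 4 tested oocyte NLRP genes were called between genotypes.

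**Figure D4:**
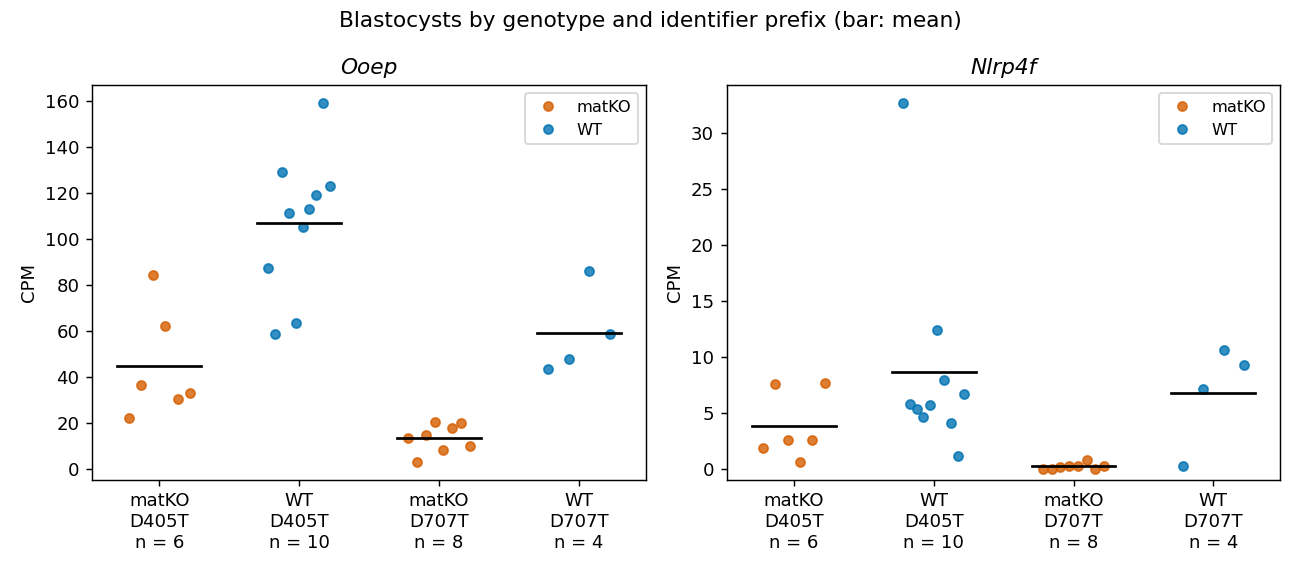
CPM of Ooep and Nlrp4f in single blastocysts (points) with means (bars), matKO left of WT within each identifier prefix. Ooep averages 44.6 against 107 CPM under D405T and 13.3 against 58.9 CPM under D707T, and Nlrp4f averages 3.79 against 8.63 CPM and 0.197 against 6.78 CPM.

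These were 2 of the 6 genes tested in blastocysts, both lower, where 6.3% of 13445 genes were called and 3.55% were lower. Nlrp2 and Zbed3 did not pass the filter on low counts. The other 4 had log2 fold changes of 0.22 ± 0.14 for Khdc3 (edgeR adjusted p = 0.41), −0.07 ± 0.35 for Padi6 (0.95), −0.71 ± 0.44 for Tle6 (0.40) and 1.27 ± 1.52 for Nlrp5 (0.73). Of the 4 KH-domain relatives of Ooep, 0 were called, and Dppa5a among them averaged 1110 ± 277 CPM in matKO and 1410 ± 482 CPM in WT blastocysts. Of 15 other stored maternal RNAs, 8 were tested, and Dppa3 rose (0.44, edgeR adjusted p = 0.042) while Cpeb1 fell (−2.11, 0.048). Of 7 tested partners, 4 TLE, 1 PADI and 2 ZBED relatives and 3 oocyte regulators, 0 were called.

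Some markers of the cell types of the blastocyst also differed between genotypes. Of the 5 blastocyst markers 2 fell and 1 rose, and of the 5 ExE markers, which share Cdx2 with that list, 1 fell. Krt18, a keratin of the outer trophectoderm, averaged 733 ± 575 CPM in matKO and 1930 ± 777 CPM in WT blastocysts (log2 fold change −1.09 ± 0.21, edgeR adjusted p = 0.0018). Krt8 fell as well (−0.68 ± 0.20, 0.034), as did Eomes, a regulator of trophoblast (−0.87 ± 0.22, 0.013), and Nanog, a factor of the inner cells, rose (0.60 ± 0.14, 0.0088). Cdx2, a factor of the trophectoderm, was not called, at 85.1 ± 38.4 CPM in matKO and 87.8 ± 33.2 CPM in WT blastocysts (0.13 ± 0.24, edgeR adjusted p = 0.83). Esrrb (0.27 ± 0.24, 0.60) and Elf5 (−2.07 ± 0.80, 0.13), both trophoblast factors, were not called either. Nor were Pou5f1, at 118 ± 73 CPM in matKO and 102 ± 34.9 CPM in WT, and Bmp4, at 0.895 ± 1.07 and 9.68 ± 17.7 CPM. The 5 blastocyst markers summed to 967 to 4070 CPM in matKO and 1750 to 5900 CPM in WT, with all 5 above 0 in each, and the 5 ExE markers to 163 to 879 CPM and 226 to 1280 CPM. Their part in the Ooep and Nlrp4f results was not tested.

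**Figure D5:**
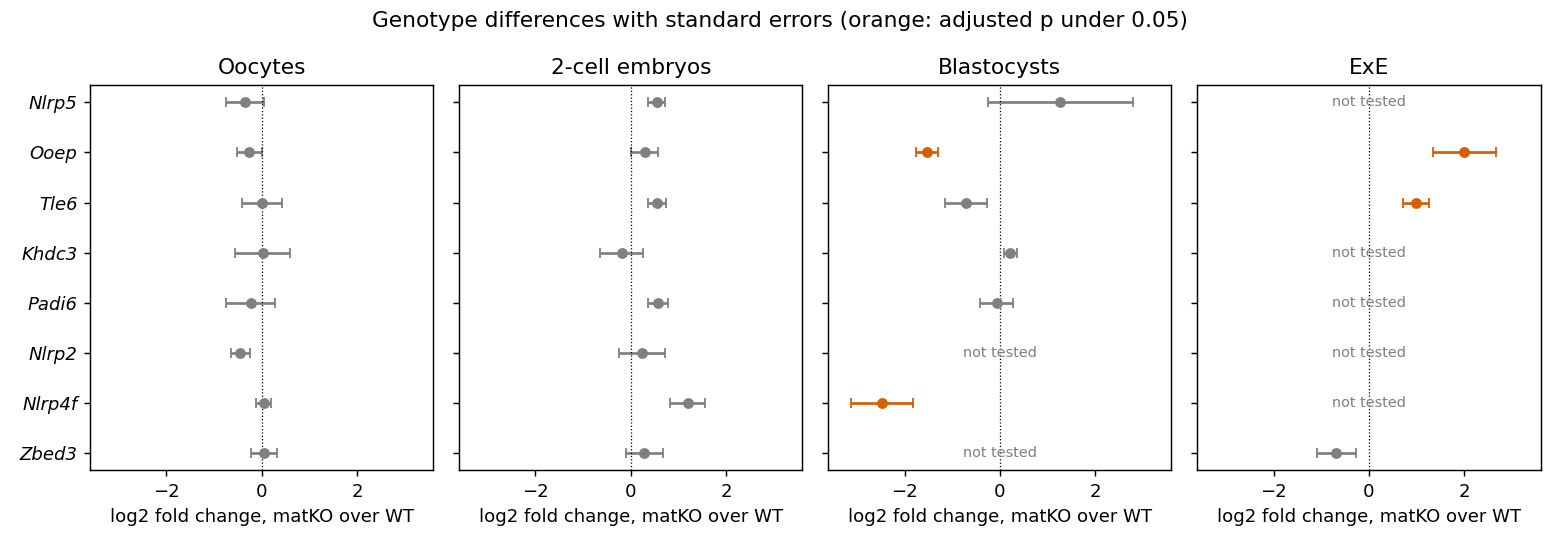
Log2 fold change, matKO over WT, with its standard error for each gene at each stage, orange where the edgeR adjusted p is under 0.05. The called points are Ooep (−1.52) and Nlrp4f (−2.48) in blastocysts and Ooep (2.00) and Tle6 (0.99) in ExE.

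The change from the 2-cell embryo to the blastocyst differed between genotypes for 2 of 8 genes, where 4.1% of all genes were called. Ooep fell in matKO, to 26.7 ± 22.2 CPM in blastocysts, against 45.4 ± 19.6 CPM in 2-cell embryos (−0.76 ± 0.29, edgeR adjusted p = 0.017), and rose in WT, to 93.2 ± 35.1 CPM against 38 ± 15.4 CPM (1.00 ± 0.31, edgeR adjusted p = 0.0047). The difference, matKO minus WT, was −1.76 ± 0.37 (edgeR adjusted p = 0.004). These blastocyst means pool both identifier prefixes, whereas all 2-cell libraries carried D707T, so stage and prefix are partly mixed in them. Under D707T, Ooep averaged 13.3 ± 6.13 CPM in matKO and 58.9 ± 19.1 CPM in WT blastocysts. Under D405T it averaged 44.6 ± 23.5 and 107 ± 30.4 CPM. With library totals alone as scaling the rise in WT was not called (0.27, edgeR adjusted p = 0.46), and without the embryos numbered 42 to 48 the fall in matKO was not (−0.70, 0.096). Nlrp4f fell in both genotypes, with log2 fold changes of −7.76 ± 0.71 in matKO and −4.36 ± 0.61 in WT. Their difference was −3.40 ± 0.71 (edgeR adjusted p = 0.0035), and −1.81 (0.22) without the embryos numbered 42 to 48. These contrasts share the blastocysts of the genotype comparison above. The other 6 genes were not called, and Tle6 had the next smallest p at −1.19 ± 0.46 (edgeR adjusted p = 0.13).

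Relatives and partners of the complex genes also changed at this step. Of the 9 tested oocyte NLRP genes, 8 fell and 1 rose in each genotype, where 41.9% of all genes fell in matKO and 37.2% in WT, and Nlrp9c had log2 fold changes of −11.99 in matKO and −11.20 in WT (edgeR adjusted p = 7e-23 and 8.3e-16). The 1 that rose, singled out after its values were seen, was Nlrp4c (3.44 and 2.57). The KH-domain relatives Khdc1b (−7.99 and −7.94), Khdc1c (−3.25 and −2.66) and Khdc1a (−2.10 and −1.92) fell in both genotypes, and the remaining 1 of 4, Dppa5a, rose (2.19 and 1.87). Of 7 partners 4 rose in each genotype, among them the tubulin gene Tuba1b (3.43 and 3.23) and Cfl1, which encodes the actin-severing protein cofilin (2.85 and 2.86). Of the 15 other stored maternal RNAs, 13 fell in matKO and 14 in WT, and Btg4, an adaptor for RNA removal, changed by −13.71 in matKO and −10.93 in WT. In the test of the difference between genotypes, Nlrp4e (−3.46, edgeR adjusted p = 0.03), Nlrp4a (−3.88, 0.034) and Zar1l (−3.97, 0.021) were called among relatives and other stored RNAs. Zar1l averaged 0 CPM in matKO and 0.101 CPM in WT blastocysts, and Nlrp4e and Nlrp4a were also low there, as given above. The sizes of these differences are therefore uncertain.

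In ExE Nlrp2 was at 0, Padi6, Khdc3, Nlrp5 and Nlrp4f were near 0, and Tle6, Zbed3 and Ooep were at a few CPM. Together they made up 0.00189% of counts in matKO and 0.00147% in WT libraries. Nlrp2 had no count in any ExE library, which with 3 counts over a group allows up to 0.0298 CPM in matKO and 0.0268 CPM in WT. Padi6 had 16 counts in 5 of 8 matKO libraries and 0 in the 10 WT libraries, which allows up to 0.0268 CPM over the WT group. It did not pass the filter on low counts, and without that filter it was called higher in matKO (edgeR adjusted p = 0.009). Khdc3 had 12 counts in 8 matKO libraries and 21 in 10 WT libraries, Nlrp5 had 12 and 7, and Nlrp4f had 16 and 21. Such floors cover counting error only.

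Ooep, Tle6 and Zbed3 passed the filter on low counts in ExE. Ooep was at 1.5 CPM in the lowest, 2.95 in the median and 7.82 in the highest of 8 matKO samples, and at 0, 0.571 and 4.31 CPM in 10 WT samples. The genotypes overlapped, 8 of 8 matKO samples were above the WT mean, and the log2 fold change was 2.00 ± 0.66 (edgeR adjusted p = 0.031). Tle6 was at 5.99, 9.68 and 16.8 CPM in matKO and at 2.46, 6.91 and 10.3 CPM in WT samples, with overlap, and rose by 0.99 ± 0.27 (edgeR adjusted p = 0.011). Zbed3 averaged 3.45 ± 2.52 CPM in matKO and 6.64 ± 3.06 CPM in WT samples (−0.68 ± 0.41, edgeR adjusted p = 0.22). That is 2 of 3 genes called, where 24.9% of 14156 genes were, and 14.1% were higher. No genotype-by-sex difference was called for the 3 genes, nor for any gene (0% by edgeR, 3.62% at an unadjusted p under 0.05, of the 3 genes 0).

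All matKO ExE libraries carried the prefix D707T and all WT ExE libraries D1042C, so in ExE the effects of genotype and of prefix cannot be told apart. The Ooep call held in 13 of 18 fits that left out 1 library. It was lost without male matKO sample 1 (1.77, edgeR adjusted p = 0.067), female matKO sample 4 (1.73, 0.078), male WT sample 1 (1.89, 0.052), male WT sample 2 (1.91, 0.052) or female WT sample 4 (1.91, 0.05). With library totals alone as scaling, Tle6 was not called (0.62, edgeR adjusted p = 0.089), and in females or males alone 0 of the 3 genes were. Of 4 KH-domain relatives only 1 was tested, Dppa5a, and it rose (2.86 ± 0.40, edgeR adjusted p = 4.7e-05). Of 5 TLE relatives 2 rose, Tle2 (4.16 ± 0.97, edgeR adjusted p = 0.0038) and Aes (0.97 ± 0.22, 0.0027), where 14.1% of all genes were higher. Among stored maternal RNAs, Zp3 of the egg coat (2.95, edgeR adjusted p = 0.017) and Dppa3 (3.33, 0.021) rose, 2 of the 8 tested, against the same 14.1%. Of the 7 partners, Tuba1b (0.95, edgeR adjusted p = 0.0018) and Tubb5 (0.80, 0.011) rose and Ube2d3 (−0.69, 0.011) and Skp1a (−0.59, 0.039) fell. Over all genes 24.9% were called in either direction.

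Markers of maternal tissue and some others differed between the matKO and WT ExE samples, which also differed in prefix. The 10 markers of decidua and uterine stroma, all above 0 in each genotype, summed to 42.1 to 813 CPM in matKO and 31.1 to 213 CPM in WT samples, and 6 of the 9 tested rose, among them Col1a1 (2.89, edgeR adjusted p = 0.0043), Des (4.12, 0.0055), Col3a1 (4.47, 0.01) and Prl8a2 (3.06, 0.03). The 5 macrophage markers summed to 7.82 to 26.6 CPM in matKO and 2.25 to 8.72 CPM in WT samples, and Cd68 (1.56, edgeR adjusted p = 0.0044) and Csf1r (2.75, 0.037) rose. Krt8 (1.83, edgeR adjusted p = 0.0015) and Krt18 (1.01, 0.018) rose, the 5 ExE markers summed to 84 to 590 CPM in matKO and 214 to 896 CPM in WT with 0 of 5 called, and the 4 oocyte markers, of which 4 were above 0 in matKO and 2 in WT, to 0.619 to 17.9 CPM and 0 to 3.25 CPM. Their part in the Ooep and Tle6 results was not tested.

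Over the 8 groups of stage and genotype, the genes most like the mean profile of the complex genes other than Zbed3 were looked for among 2365 genes with at least 100 CPM on average in WT oocytes. Likeness was the root mean square difference of the centred log2(CPM + 1) profiles over the 8 group means. Uchl1, a neuronal and oocyte ubiquitin hydrolase, was nearest at 0.379, with 4630 CPM in matKO and 5510 CPM in WT oocytes and 103 and 127 CPM in blastocysts. RP23-299N4.1 (0.561), Zfp57, a zinc finger protein that protects imprints (0.578), Fam46c (0.58), Gm14820 (0.633), Rnf24 (0.653), Enox1 (0.745) and Gtsf1, a factor of piRNA silencing (0.763), followed. Of the 8 genes themselves Padi6 lay nearest to that profile, at 0.82, and Zbed3 at 2.25 and Khdc3 at 3.9 lay farthest. The mean kept Khdc3. Set among the 2365 genes, Padi6 would rank 13, Nlrp5 276 and Khdc3 2111. The genes listed are thus near this mean and not shown to be near any single gene of the complex.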

How the data were processed

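The authors deposited counts per gene as whole numbers in 4 tables, 1 for each stage, with gene positions and lengths. Per the submitters' processing notes, Trim Galore, STAR, SAMtools and featureCounts were used with build mm10. The sources used here give no strand setting, annotation release or rule for reads with several matches. A further 8 columns match no sample and were left out. Groups were stage and genotype as labelled. The labels name no litters or donors, so p-values measure the spread between the 76 libraries, which may be technical in part. No 2 libraries of a group agreed within sampling noise (chi-square per degree of freedom at least 10.1).

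CPM are the deposited counts divided by the library total in M counts. Stages were fitted singly with edgeR 4.0.16 in R 4.3.3, using filterByExpr (minimum count 10), TMM scaling, estimateDisp, glmQLFit (robust, legacy) and glmQLFTest, with Benjamini-Hochberg adjustment over all genes tested and a threshold of 0.05. Sex was a term where both sexes were present, and identifier prefix in blastocysts. Stage changes were fitted over both stages. The newer edgeR fit called unchanged genes too often when tested on simulated counts and was an alternative. Those counts were drawn with dispersions from estimateDisp, which the main fit also used, so they cannot settle which fit suits the real counts. SE were derived from the F statistic. Other alternatives were DESeq2 1.42.0, RLE or library-total scaling, no filter, a replicate block, single sexes or prefixes, no prefix term, leaving out the 2-cell embryos numbered 42 to 48, leaving out each library, and thinning (chosen after seeing the data).

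The 8 genes and all lists were chosen with earlier results of these data known. Named were the 8 genes in every comparison, Ezhip, up to 4 called genes of smallest p from a list between genotypes, up to 3 for stage changes, and the 8 genes most alike in pattern.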

Additional observations from a re-analysis of the deposited data

Results flagged for a closer look

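The change from 2-cell embryo to blastocyst differed between genotypes for Ooep, with a difference of −1.76 ± 0.37 on the log2 scale (matKO minus WT, SE, edgeR adjusted p = 0.004), and for Nlrp4f, with −3.40 ± 0.71 (edgeR adjusted p = 0.0035). Both differences were tested as such. Without the 2-cell embryos numbered 42 to 48 the difference was −1.55 for Ooep (edgeR adjusted p = 0.042) and −1.81 for Nlrp4f, which was no longer called (0.22).

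Of 21 sets of 4 to 10 libraries examined for a sample far from the others, 3 had one, where chance gives about 1 in 20. Only matKO oocytes and the ExE groups have that size, so 2-cell embryos, blastocysts and WT oocytes were not examined. All 3 were in ExE at low counts, where that rate may not hold. Ooep was at 4.31 CPM (73 counts) in female WT sample 6, against 0 to 2.26 CPM in the other WT samples. Padi6 was at 2.19 CPM (6 counts) in female matKO sample 1, against 0 to 0.893 CPM in the other matKO samples. Nlrp5 was at 0.651 CPM (6 counts) in male WT sample 2, against 0 to 0.0515 CPM in the other WT samples.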

How the results depend on the processing

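Of 1144 refits of single genes, 1068 kept direction and side of the threshold, 27 lost a call, 4 gained one and 45 changed sign; causes were not tested. Replicate numbers were not taken to pair libraries, since at every stage some same-numbered libraries had a correlation of deviations under 0.1. The lowest was −0.38 among ExE samples, −0.23 among oocytes, −0.20 among 2-cell embryos and −0.12 among blastocysts, where 9 of 13 pairs were nevertheless over 0.1 (median 0.15, highest 0.47). The replicate block gave −0.63 for Khdc3 and −0.05 for Zbed3 in oocytes, −0.22 for Zbed3 in 2-cell embryos and 0.18 for Padi6 in blastocysts, and with it 1 gene of the complex, Ooep, was called in blastocysts. In 2-cell embryos, females alone gave −0.11 for Ooep and −0.04 for Nlrp2, and males alone 0.32 for Khdc3. Without the embryos numbered 42 to 48, values were −0.05 for Ooep, −0.60 for Nlrp2, −0.59 for Nlrp4f and −1.54 for Zbed3. That setting gave −0.08, −0.57 and −1.55 for Nlrp2, Nlrp4f and Zbed3 in the genotype difference of the change from oocyte to 2-cell embryo. In the later change it gave 0.06 for Nlrp2 and 1 call. There, Zbed3 was at −0.04 with the newer edgeR fit and −0.20 with RLE, and Nlrp5 at −0.10 with prefix D707T only. In blastocysts Padi6 was at 0.08 in females, 0.27 within D405T and 0.15 without the prefix term, Khdc3 at 0.00 in males, and Nlrp5, Tle6 and Khdc3 at −0.06, 0.13 and −0.14 within D707T.

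Of the 8 genes, DESeq2 called 2 and males alone 1 in 2-cell embryos (0 in the report). Females, males, either prefix alone and the fit without the prefix term each called 1 in blastocysts (2 in the report). In ExE library totals called 1, each sex alone 0, and the fit with no count filter 3, Padi6 being added (edgeR adjusted p = 0.009; 2 in the report). Leaving out 1 library gave 0 to 1 calls in 2-cell embryos, 1 to 2 in ExE, and, for oocytes, log2 fold changes of −0.53 to 0.34 for Tle6, −0.70 to 0.66 for Khdc3, −0.89 to 0.12 for Padi6, −0.02 to 0.09 for Nlrp4f and −0.10 to 0.40 for Zbed3. It gave −0.28 to 0.04 for Padi6 in blastocysts, and −0.85 to 0.48 for Khdc3 and −0.15 to 0.36 for Zbed3 in the genotype difference of the change to the 2-cell stage. In 2-cell embryos Nlrp4f was called (1.32, edgeR adjusted p = 0.048) without female matKO embryo 1.

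Over all genes, calls between oocytes numbered 3, 36 with DESeq2 and 1 with the replicate block. Between 2-cell embryos they numbered 106, 454 with the newer fit, 693 with DESeq2, 14 with the block, 1 in females, 256 in males, 19 without the embryos numbered 42 to 48, and 52 to 256 without 1 library. Between blastocysts they numbered 847, 1796 with the newer fit, 1336 with DESeq2, 427 with the block, 51 in females, 85 in males and 140 within D707T, and in ExE 3520, 1320 in females and 386 in males. For the genotype difference of the earlier change they numbered 5, 2 with the newer fit, 2 without the embryos numbered 42 to 48 and 0 to 6 without 1 library, and of the later one 712, 453 without those embryos and 297 with D707T only. Library totals as scaling took the share of higher calls to 25.4% (main scaling 42.5%) in 2-cell embryos, 23.4% (43.7%) in blastocysts, 26% (56.8%) in ExE, and 29.4% (42.3%) in matKO and 27.3% (41.9%) in WT for the later change, and RLE took its genotype difference to 39.9% (56.3%). In ExE library totals moved the median of all genes to −0.40.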
